A study of Mus musculus with 16 samples.

Results

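Aminoacyl-tRNA synthetases attach each amino acid to its transfer RNA. The 36 genes described here are those of a list of symbols for this enzyme family, 20 for cytosolic enzymes and 16 for mitochondrial ones, whose symbols end in 2. All 36 were found among the 20295 genes of the count table, and all 36 passed the filter on low counts that left 12786 genes for testing. The cytosolic enzymes serve translation on cytosolic ribosomes. The mitochondrial enzymes, also encoded in the nucleus, are imported and serve the translation of respiratory chain subunits encoded by mitochondrial DNA. When the translation factor eIF2 is phosphorylated, the transcription factor ATF4 is made and activates many cytosolic synthetase genes with genes of amino acid synthesis and transport, a program called the integrated stress response.

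The samples came from 1 wild-type line of mouse brown preadipocytes, made immortal with SV40 large T antigen and differentiated in culture until day 7. SR-3420 is a ligand of ABHD5 that triggers lipolysis without a β-adrenergic agonist, triacsin C (TC) inhibits the acyl-CoA synthetases that activate fatty acids, and etomoxir (ETO) inhibits their carnitine-dependent entry into mitochondria. The groups were Vehicle (2 samples), SR-3420 (2), TC (3), TC+SR-3420 (3), ETO (3) and ETO+SR-3420 (3). Pretreatment with 5 µM TC or 50 µM ETO lasted 1 h and was followed by 3 h with or without 10 µM SR-3420, the dose of the labels, while the study's figure legends state a higher one. Total RNA was sequenced, and gene counts summed to between 9452861 and 25670624 per sample, with a median of 13602886.

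Values per sample are CPM (counts scaled to a fixed library total), scaled by the TMM method of edgeR, so a level is a share of each library. P-values come from edgeR's quasi-likelihood test, adjusted over all 12786 genes, and a gene passed the test when its adjusted p was under 0.05. They measure the spread between samples, which the study describes as independent experiments with technical duplicates, all of 1 cell line, and the labels do not say how the duplicates enter the counts. In RNA from whole cultures, fewer cells of a type and less RNA per cell cannot be told apart.

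Some libraries stood apart within their groups. A single component held 66.5% of the variance within groups and mostly set replicate 3 apart from replicates 1 and 2, with TC replicate 1 and ETO+SR-3420 replicate 2 on the side of replicate 3. The adipocyte label was checked against markers. Of 12 listed brown adipocyte genes 11 were tested, and their summed level was 12294 and 11587 CPM in Vehicle, 8783 and 8575 in SR-3420, 13123, 13786 and 13827 in TC, 4908, 5085 and 5510.5 in TC+SR-3420, 11894, 11127 and 12669 in ETO and 6021, 4766 and 8066 in ETO+SR-3420. The sum was led by Fabp4 in every sample and was lower in each group with SR-3420 than in its control. Not all genes of the list followed the sum. The median log2 fold change of those tested was -0.036 for SR-3420 alone, -0.77 within TC and -0.46 within ETO. The thermogenic marker Ucp1 was near the bottom of the range, at 0.461 to 3.66 CPM, with a higher group mean in each group with SR-3420 than in its control, and Dio2 reached at most 0.127. The general adipocyte markers Fabp4, Adipoq (806 to 3396) and Plin1 (425 to 1968) were abundant. Other brown markers lay between, with 8.29 to 35.3 for Cidea, 5.99 to 40.1 for Prdm16 and 34.1 to 178 for Cox8b.

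All 5 markers of preadipocytes or fibroblasts were tested. Their summed level was 139 and 127 CPM in Vehicle, 218 and 193 in SR-3420, 194, 167 and 152 in TC, 314, 247 and 225 in TC+SR-3420, 154, 132 and 105 in ETO and 255, 231 and 167 in ETO+SR-3420, with Thy1 or Pdgfra the most abundant. It was higher in every group with SR-3420 than in its control. Summed levels lay between 4.33 and 18.4 for 5 macrophage markers, led by Cd68 and highest in TC, between 0.108 and 1.26 for 3 endothelial markers, and between 1.16 and 7.17 for 3 muscle markers. The defining markers of macrophages (Ptprc), endothelium (Cdh5) and differentiated muscle (Ckm) were at or near 0, the highest value being 0.843.

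Resting levels can be compared between genes per kilobase of counted length. In Vehicle, the median was 44.2 CPM per kilobase over the 20 cytosolic genes and 13.9 over the 16 mitochondrial genes. Cytosolic levels ran from 19.6 for Dars, the aspartyl enzyme, to 146 for Aars, the alanyl enzyme, followed by the glycyl enzyme Gars at 106 and the asparaginyl enzyme Nars at 86.4. Mitochondrial levels ran from 5.54 for the prolyl enzyme Pars2 to 95.8 for the leucyl enzyme Lars2, with the isoleucyl enzyme Iars2 second at 56.5. The 2 Vehicle samples gave 88.6 and 103 for Lars2 and 6.49 and 4.59 for Pars2. Divided by the gene's span in place of its counted length, the medians were 5.62 and 3.31. The order of genes changed as well. By span, the highest mitochondrial gene was Mars2 at 13.3 and the lowest Fars2 at 0.0795, with Lars2 at 3.88 and Pars2 at 4.04. Among the cytosolic genes Aars stayed the highest at 24.9, and Farsb was the lowest at 0.521.

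Averaged over its members, the cytosolic set was higher with SR-3420 whatever the pretreatment. On the log2 scale, relative to the Vehicle mean, the mean level of the 20 cytosolic genes was 0.39 and 0.55 in the SR-3420 samples, 0.25, 0.24 and 0.24 in TC, 0.73, 0.78 and 0.78 in TC+SR-3420, 0.11, 0.14 and 0.06 in ETO and 0.46, 0.68 and 0.50 in ETO+SR-3420. The Vehicle samples themselves lay at 0.041 and -0.041. TC alone thus sat between Vehicle and SR-3420, and TC+SR-3420 was the highest group, with no overlap between these groups. The mitochondrial set went the other way. Its mean log2 level was 0.11 and -0.11 in Vehicle, -0.24 and -0.21 in SR-3420, -0.07, 0.06 and 0.027 in TC, -0.51, -0.40 and -0.59 in TC+SR-3420, 0.21, 0.028 and -0.18 in ETO and -0.30, -0.51 and -0.43 in ETO+SR-3420. The lowest group was TC+SR-3420, whose range overlapped that of ETO+SR-3420, and every sample given SR-3420 lay below every sample without it. Without Lars2, left out after seeing the data, the values were -0.54, -0.59 and -0.67 in TC+SR-3420 and -0.33, -0.53 and -0.43 in ETO+SR-3420, with no overlap. The distance between the sets, cytosolic minus mitochondrial, was 1.24, 1.17 and 1.37 in TC+SR-3420 against 0.31, 0.18 and 0.21 in TC. It was 0.77, 1.19 and 0.94 in ETO+SR-3420 against -0.10, 0.11 and 0.25 in ETO. Without inhibitor it was 0.63 and 0.76 in SR-3420 against -0.067 and 0.067 in Vehicle. The ranges of TC+SR-3420 and ETO+SR-3420 overlapped, and without Lars2 they did not, at 1.26 to 1.45 and 0.79 to 1.22.

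**Figure D1:**
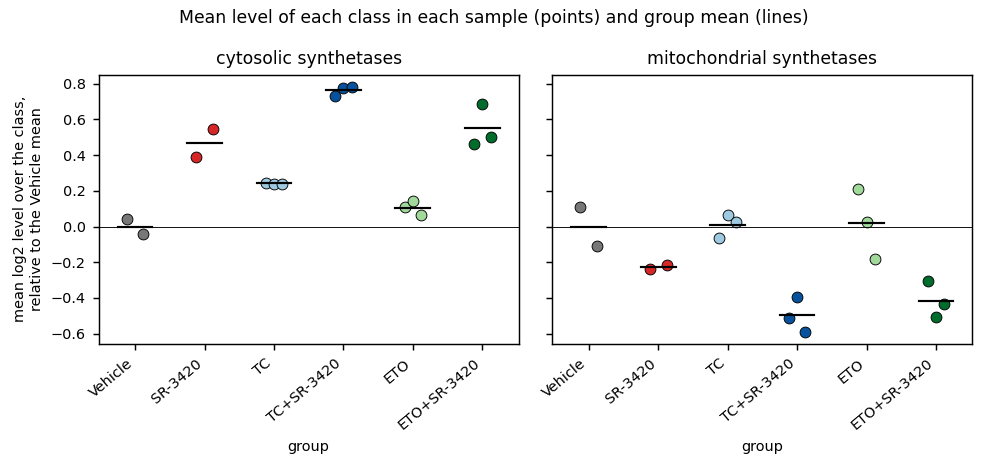
Mean log2 level of the 20 cytosolic (left) and 16 mitochondrial (right) synthetase genes in each sample, relative to the Vehicle mean. Points are samples and lines are group means; the groups with SR-3420 lie highest on the left and lowest on the right, and TC lies between Vehicle and SR-3420 on the left.

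The question put to each pretreatment was how synthetase transcripts respond when lipolysis is triggered, with fatty acid activation (TC) or mitochondrial import (ETO) inhibited or not. Of the 20 cytosolic genes, 8 rose in SR-3420 against Vehicle, where 4.75% of all genes tested rose, and 0 fell by edgeR (0 at an unadjusted p under 0.05 and 0 by DESeq2), where 2.79% of all genes fell. Within TC, 12 rose against 17.3% of all genes, and 0 fell by edgeR (0 at an unadjusted p under 0.05 and 0 by DESeq2) against 19.7%. Within ETO, 9 rose against 12.5% of all genes, and 0 fell by edgeR (0 at an unadjusted p under 0.05 and 0 by DESeq2) against 12.8%. The median log2 fold change of the cytosolic genes was 0.43, 0.64 and 0.46, and that of all genes tested -0.0038, 0.019 and 0.0094. These 3 comparisons share no samples, but they come from 1 fit with a common estimate of the spread and from 1 cell line. Their samples also varied together in part by replicate number, so the 3 responses are not shown to be independent. Of the preadipocyte markers, 0, 3 and 3 of 5 were higher in the same comparisons, and their part in the result was not tested.

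Sars, the seryl enzyme, had the largest mean response of the cytosolic set. Its level was 239 and 209 CPM in Vehicle, 386 and 447 in SR-3420, 296, 306 and 280.1 in TC, 565, 568 and 528 in TC+SR-3420, 240.3, 243 and 206 in ETO, and 413, 491 and 380.2 in ETO+SR-3420. Every sample given SR-3420 lay above every sample of its own control, TC alone above Vehicle, and the TC+SR-3420 samples were the highest. The log2 fold changes (± SE) were 0.90 ± 0.15 for SR-3420 alone, 0.91 ± 0.12 with TC and 0.90 ± 0.12 with ETO, with edgeR adjusted p of 0.00295, 1.01e-04 and 2.24e-04. Nars, the asparaginyl enzyme, followed with 236 and 222 CPM in Vehicle, 385 and 455 in SR-3420, 385, 356 and 358 in TC, 661, 650.0 and 695 in TC+SR-3420, 263, 267 and 265 in ETO, and 438, 571 and 507 in ETO+SR-3420. TC alone and ETO alone lay above Vehicle, though no cytosolic gene passed the test in ETO against Vehicle. Each SR-3420 group again lay clear of its control. Log2 fold changes were 0.88 ± 0.14 for SR-3420 alone, 0.87 ± 0.11 with TC and 0.93 ± 0.11 with ETO (edgeR adjusted p = 0.00214, 8.46e-05 and 1.05e-04).

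Cars, the cysteinyl enzyme, measured 65.2 and 62.3 CPM in Vehicle, 110.0 and 114 in SR-3420, 75.5, 77.9 and 78.7 in TC, 149.9, 152 and 140.2 in TC+SR-3420, 74.0, 82.9 and 68.5 in ETO, and 121, 135 and 113 in ETO+SR-3420. No sample overlapped between an SR-3420 group and its control, and TC and ETO alone were above Vehicle. The responses were 0.81 ± 0.13 for SR-3420 alone, 0.93 ± 0.11 with TC and 0.71 ± 0.11 with ETO on the log2 scale (edgeR adjusted p = 0.00215, 3.00e-05 and 3.71e-04). For Tars, the threonyl enzyme, the values were 152 and 163 CPM in Vehicle, 262 and 281 in SR-3420, 232, 254 and 248 in TC, 369, 391 and 446 in TC+SR-3420, 185, 193 and 204 in ETO, and 288, 361 and 319 in ETO+SR-3420. The TC and the ETO samples exceeded the Vehicle samples, and each SR-3420 group its control. Its log2 fold changes were 0.78 ± 0.14 for SR-3420 alone, 0.71 ± 0.11 with TC and 0.73 ± 0.11 with ETO (edgeR adjusted p = 0.00436, 3.26e-04 and 5.23e-04). The first of these calls was lost without Vehicle replicate 2, at an adjusted p of 0.0555 by edgeR. Iars, the isoleucyl enzyme, counted 131 and 117 CPM in Vehicle, 182 and 203 in SR-3420, 143, 127 and 139.9 in TC, 251, 261 and 255.9 in TC+SR-3420, 142, 139 and 142 in ETO, and 202, 239 and 200.3 in ETO+SR-3420. Its controls kept to a narrow band, in which ETO lay above Vehicle and TC overlapped it, and all SR-3420 samples were above it, by log2 0.63 ± 0.13 for SR-3420 alone, 0.90 ± 0.10 with TC and 0.60 ± 0.10 with ETO (edgeR adjusted p = 0.00914, 3.33e-05 and 0.00112). Without Vehicle replicate 3 or SR-3420 replicate 3 the call for SR-3420 alone was lost, with adjusted p of 0.0675 to 0.101 by edgeR. Of the exonic 31-base runs of Iars, 20.4% recur elsewhere in the genome, mostly on chromosome 1. Whether reads from there were counted for Iars was not tested.

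The smallest responses were those of Qars, the glutaminyl enzyme, and Dars. Qars stood at 90.8 and 66.2 CPM in Vehicle, 87.3 and 77.7 in SR-3420, 79.4, 83.2 and 79.0 in TC, 77.7, 77.7 and 64.6 in TC+SR-3420, 74.8, 71.8 and 56.3 in ETO, and 76.4, 72.9 and 61.5 in ETO+SR-3420, and Dars at 35.6 and 51.7 CPM in Vehicle, 30.7 and 47.0 in SR-3420, 38.9, 34.0 and 46.1 in TC, 35.5, 45.5 and 64.8 in TC+SR-3420, 37.0, 43.7 and 81.7 in ETO, and 32.4, 57.1 and 77.7 in ETO+SR-3420. The Qars samples of TC+SR-3420 were just below those of TC, and the other groups with SR-3420 overlapped their controls in both genes. For Dars, replicate 3 was the highest of each group. Log2 fold changes were 0.07 ± 0.18 for SR-3420 alone, -0.14 ± 0.15 with TC and 0.06 ± 0.15 with ETO for Qars and -0.17 ± 0.43 for SR-3420 alone, 0.29 ± 0.36 with TC and 0.042 ± 0.35 with ETO for Dars, and none passed (edgeR adjusted p = 0.867, 0.507 and 0.833 for Qars and 0.867, 0.547 and 0.951 for Dars). The others that passed were Aars, Wars and Yars for SR-3420 alone, Aars, Eprs, Farsb, Gars, Lars, Wars and Yars within TC and Aars, Gars, Wars and Yars within ETO. Over the 13 cytosolic genes not given sample by sample, log2 fold changes ran from 0.14 to 0.68 for SR-3420 alone, from -0.27 to 0.90 within TC and from -0.22 to 0.64 within ETO. The lowest within TC and ETO was Mars, the methionyl enzyme, which overlaps Ddit3 on the opposite strand by 68 bases.

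Part of these counts rested on few samples. The 8 cytosolic genes that passed for SR-3420 alone became 4 without Vehicle replicate 2, Vehicle replicate 3 or SR-3420 replicate 3 (1.97%, 1.48% and 2.79% of all genes rose), 0 in a model of only these 4 samples (0.37% of all genes) and 14 once trends over GC content and length were removed (12.3%), an alternative chosen after seeing the data. Within ETO the 9 became 4 in a model of those groups alone (5.1% of all genes), where Iars was among those lost, and 16 with the trends removed (23.1%). With the replicate number as a block they became 17 (22.7%).

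Part of the cytosolic enzymes sit together in the multi-tRNA synthetase complex. Among its 8 synthetases 1, 3 and 1 rose for SR-3420 alone, within TC and within ETO, where 4.75%, 17.3% and 12.5% of all genes rose, with median log2 fold changes of 0.34, 0.43 and 0.32. Outside the complex 7, 9 and 8 of 12 rose, and the medians were 0.67, 0.73 and 0.56. The difference between these groups was not tested. Gars and Kars, the lysyl enzyme, serve both compartments from 1 gene each. Gars gave log2 fold changes of 0.47 ± 0.16 for SR-3420 alone, 0.75 ± 0.13 with TC and 0.50 ± 0.13 with ETO (edgeR adjusted p = 0.0887, 5.35e-04 and 0.0112), and Kars 0.36 ± 0.14 for SR-3420 alone, 0.20 ± 0.12 with TC and 0.31 ± 0.12 with ETO (edgeR adjusted p = 0.149, 0.198 and 0.0662). By fold of the catalytic domain, 4, 5 and 4 of 9 class I cytosolic enzymes rose, as did 4, 6 and 5 of 10 class II ones, while Eprs, which holds a domain of each class, rose within TC.

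**Figure D2:**
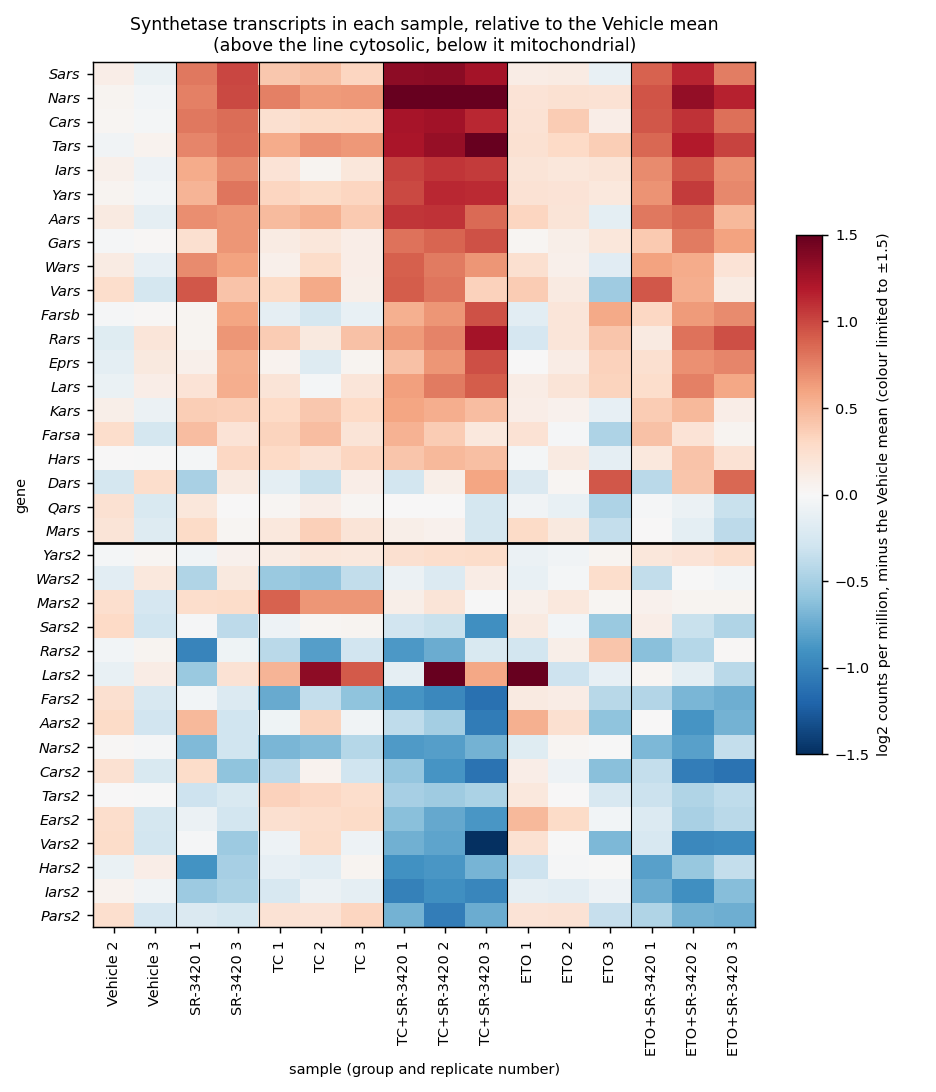
Level of every synthetase gene in each sample, as log2 CPM minus the Vehicle mean (colour, limited to ±1.5). Genes are in order of their mean SR-3420 response, cytosolic above the line and mitochondrial below it; the upper block is mostly red and the lower block mostly blue in the SR-3420 samples, and Lars2 varies within groups.

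The promoters of the members were searched for the C/EBP-ATF response element TGATGNAA on both strands. No other motif was searched. Promoters of RefSeq on build GRCm38.p6, from 250 bases before to 50 bases after the start, were matched for 13 of the 20 cytosolic and 14 of the 16 mitochondrial genes. Hars, Lars, Nars and Hars2 were left out, and Cars, Rars, Vars, Wars and Pars2 were not matched. The motif lay in 5 of the cytosolic promoters and in 0 of the mitochondrial ones, and in 3.97% of all 32851 promoters of this length. Its first base was 112 bases before the start in Aars, 30 in Gars and 15 in Tars, and 7 bases past it in Iars and 3 in Yars, the tyrosyl enzyme; Aars held a second copy that is not among the bases shown. Asns, which makes asparagine and is a textbook ATF4 target, had it 23 bases before the start, and 2 of the 4 reference genes held it. The 250 bases before the start are shown for 3 cytosolic genes with the motif, for Sars and Iars2 as a cytosolic and a mitochondrial gene without it that passed in all 3 comparisons, and for Asns, each 5′ to 3′ with the motif, or its reverse complement, in capitals. The positions are chr8:111033592-111033841 (plus strand) for Aars, chr6:55037751-55038000 (plus strand) for Gars, chr15:11399659-11399908 (minus strand) for Tars, chr3:108445260-108445509 (minus strand) for Sars, chr1:185329402-185329651 (minus strand) for Iars2 and chr6:7693210-7693459 (minus strand) for Asns. A match is only a description of these letters, and its absence says only that they are not in this window.
Aars: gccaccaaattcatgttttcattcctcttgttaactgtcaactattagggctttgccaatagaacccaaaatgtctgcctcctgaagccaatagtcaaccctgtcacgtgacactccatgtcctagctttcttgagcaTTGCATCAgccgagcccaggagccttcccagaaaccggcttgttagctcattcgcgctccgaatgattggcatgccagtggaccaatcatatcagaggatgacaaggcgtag
Gars: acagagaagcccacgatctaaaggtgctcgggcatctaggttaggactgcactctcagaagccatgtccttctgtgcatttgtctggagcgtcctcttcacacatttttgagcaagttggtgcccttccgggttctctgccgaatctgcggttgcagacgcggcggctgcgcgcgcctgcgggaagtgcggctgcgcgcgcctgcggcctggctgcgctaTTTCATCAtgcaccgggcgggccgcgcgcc
Tars: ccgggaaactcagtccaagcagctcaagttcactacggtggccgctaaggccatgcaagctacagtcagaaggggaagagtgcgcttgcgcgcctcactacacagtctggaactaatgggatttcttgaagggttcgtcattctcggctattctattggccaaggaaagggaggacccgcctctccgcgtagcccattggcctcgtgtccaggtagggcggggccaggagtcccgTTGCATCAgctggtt
Sars: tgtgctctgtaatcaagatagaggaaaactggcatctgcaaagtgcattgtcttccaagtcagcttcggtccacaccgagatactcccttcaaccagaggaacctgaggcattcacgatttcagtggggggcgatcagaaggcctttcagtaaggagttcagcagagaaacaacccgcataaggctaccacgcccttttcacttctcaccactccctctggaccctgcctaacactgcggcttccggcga
Iars2: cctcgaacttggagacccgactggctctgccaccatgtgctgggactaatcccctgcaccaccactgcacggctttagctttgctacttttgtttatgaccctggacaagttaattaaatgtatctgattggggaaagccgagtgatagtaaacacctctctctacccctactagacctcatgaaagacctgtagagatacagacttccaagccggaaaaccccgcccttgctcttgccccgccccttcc
Asns: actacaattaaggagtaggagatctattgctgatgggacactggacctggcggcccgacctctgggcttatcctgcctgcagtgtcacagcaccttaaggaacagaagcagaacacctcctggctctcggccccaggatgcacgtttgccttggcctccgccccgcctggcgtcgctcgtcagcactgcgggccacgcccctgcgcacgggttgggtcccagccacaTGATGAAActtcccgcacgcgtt

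Among the 16 mitochondrial genes, 2 fell in SR-3420 against Vehicle (Hars2 and Iars2), 7 within TC (Ears2, Hars2, Iars2, Mars2, Pars2, Tars2 and Vars2) and 7 within ETO (Ears2, Fars2, Hars2, Iars2, Nars2, Pars2 and Tars2), where 2.79%, 19.7% and 12.8% of all genes fell. By edgeR 0 rose in each, while 0, 1 and 1 were higher at an unadjusted p under 0.05, and by DESeq2 0, 1 and 1. The median log2 fold changes were -0.21, -0.64 and -0.56. Among the brown adipocyte markers 2, 7 and 5 of 11 were lower and 0, 1 and 0 higher by edgeR. Their part in the result was not tested.

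Iars2, the isoleucyl enzyme, fell in all 3 comparisons. Its level was 203 and 188 CPM in Vehicle, 134 and 140.0 in SR-3420, 165, 183 and 177 in TC, 96.8, 103 and 98.9 in TC+SR-3420, 178, 175 and 186 in ETO, and 116, 103 and 125 in ETO+SR-3420. Each SR-3420 group lay wholly below its control, and the TC+SR-3420 samples were the lowest. The log2 fold changes were -0.51 ± 0.12 for SR-3420 alone, -0.82 ± 0.10 with TC and -0.64 ± 0.10 with ETO (edgeR adjusted p = 0.0233, 5.30e-05 and 5.17e-04). For Hars2, the histidyl enzyme, the samples gave 41.2 and 46.9 CPM in Vehicle, 23.7 and 31.2 in SR-3420, 40.4, 39.2 and 45.3 in TC, 23.4, 23.9 and 27.2 in TC+SR-3420, 35.4, 43.5 and 43.7 in ETO, and 25.01, 29.7 and 34.4 in ETO+SR-3420. They too separated by SR-3420 within each pretreatment. Log2 fold changes of -0.68 ± 0.19 for SR-3420 alone, -0.75 ± 0.16 with TC and -0.46 ± 0.15 with ETO passed (edgeR adjusted p = 0.0446, 0.00217 and 0.0420). For SR-3420 alone both calls were lost without any 1 of the 4 samples (Vehicle replicate 2, Vehicle replicate 3, SR-3420 replicate 1 and SR-3420 replicate 3), with edgeR adjusted p of 0.0783 to 0.146 for Iars2 and 0.05003 to 0.325 for Hars2, and within ETO the Hars2 call was lost without ETO replicate 2, ETO replicate 3, ETO+SR-3420 replicate 1 or ETO+SR-3420 replicate 2, at 0.0962 to 0.133, and with no filter on low counts.

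Pars2, the prolyl enzyme and the lowest of the family per kilobase of counted length in Vehicle, measured 20.0 and 14.1 CPM in Vehicle, 14.4 and 14.0 in SR-3420, 19.6, 19.4 and 21.0 in TC, 10.2, 8.18 and 10.0 in TC+SR-3420, 19.3, 19.6 and 13.3 in ETO, and 12.2, 10.3 and 10.1 in ETO+SR-3420. The TC+SR-3420 and ETO+SR-3420 samples lay below all of their controls, while the SR-3420 samples lay between or below the 2 Vehicle values. Its log2 fold changes were -0.26 ± 0.22 for SR-3420 alone, -1.07 ± 0.18 with TC and -0.68 ± 0.18 with ETO (edgeR adjusted p = 0.541, 5.69e-04 and 0.0150). Without ETO replicate 1, ETO replicate 2 or ETO+SR-3420 replicate 2 the call within ETO was lost, at an edgeR adjusted p of 0.0561 to 0.0682. Lars2 had the largest mean size of log2 fold change among the mitochondrial genes, taken without sign, and its responses differed in direction. Its level spread widely, with 344 and 399.5 CPM in Vehicle, 252 and 431 in SR-3420, 526, 937 and 699 in TC, 339, 2192 and 555 in TC+SR-3420, 1974, 299 and 341 in ETO, and 377, 335 and 279.6 in ETO+SR-3420. TC+SR-3420 replicate 2 and ETO replicate 1 were far above the rest of their groups, and the log2 fold changes of -0.12 ± 0.86 for SR-3420 alone, 0.51 ± 0.71 with TC and -1.40 ± 0.72 with ETO did not pass (edgeR adjusted p = 0.954, 0.597 and 0.175). Of its exonic 31-base runs 7.07% recur elsewhere in the genome, and 0 lie on the mitochondrial chromosome.

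The smallest mitochondrial responses were in Yars2, the tyrosyl enzyme, and Wars2, the tryptophanyl enzyme. Yars2 measured 38.9 and 40.7 CPM in Vehicle, 38.3 and 41.5 in SR-3420, 43.3, 44.8 and 44.4 in TC, 47.1, 47.6 and 48.3 in TC+SR-3420, 37.5, 38.4 and 40.9 in ETO, and 44.7, 45.7 and 47.6 in ETO+SR-3420. The SR-3420 samples overlapped those of Vehicle, and the other 2 groups with SR-3420 lay narrowly above their controls. Wars2 gave 24.9 and 30.9 CPM in Vehicle, 20.3 and 30.7 in SR-3420, 18.8, 18.5 and 21.4 in TC, 26.1, 24.0 and 29.9 in TC+SR-3420, 25.7, 27.2 and 33.3 in ETO, and 21.5, 27.6 and 26.8 in ETO+SR-3420. The TC+SR-3420 samples lay above the TC samples, SR-3420 overlapped Vehicle, and ETO+SR-3420 overlapped ETO. Log2 fold changes were 0.0039 ± 0.11 for SR-3420 alone, 0.11 ± 0.09 with TC and 0.24 ± 0.09 with ETO for Yars2 and -0.13 ± 0.22 for SR-3420 alone, 0.45 ± 0.18 with TC and -0.18 ± 0.18 with ETO for Wars2, none of which passed (edgeR adjusted p = 0.990, 0.387 and 0.0741 for Yars2, 0.789, 0.0663 and 0.491 for Wars2). Sars2, the partner of Sars, stood at 19.9 and 13.2 CPM in Vehicle, 16.04 and 12.4 in SR-3420, 15.4, 16.5 and 16.6 in TC, 13.3, 12.8 and 8.54 in TC+SR-3420, 17.8, 15.7 and 11.0 in ETO, and 17.3, 12.9 and 11.8 in ETO+SR-3420. The TC+SR-3420 samples lay below the TC samples, and the other groups with SR-3420 overlapped their controls. Its log2 fold changes were -0.22 ± 0.29 for SR-3420 alone, -0.48 ± 0.24 with TC and -0.08 ± 0.23 with ETO (edgeR adjusted p = 0.717, 0.127 and 0.842).

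Over the 8 mitochondrial genes not given sample by sample, log2 fold changes ran from -0.47 to 0.11 for SR-3420 alone, from -1.02 to -0.10 within TC and from -0.62 to -0.36 within ETO. The strongest of them within TC were Ears2, the glutamyl enzyme, at -1.02 ± 0.17 (edgeR adjusted p = 4.29e-04) and Vars2, the valyl enzyme, at -1.02 ± 0.29 (edgeR adjusted p = 0.0147). The 2 calls for SR-3420 alone became 0 without any 1 of its 4 samples, 0 in a model of only these, 0 with no filter on low counts, 1 without Iars2, which overlaps another gene, and 4 with GC content and length trends removed, when 11.9% of all genes fell. Within ETO the 7 became 3 without ETO replicate 1, 2 without ETO replicate 2, 1 without ETO+SR-3420 replicate 2, 1 in a model of those groups alone, where Iars2 was the one kept, and 12 with the trends removed, the shares of all genes that fell being 9.75%, 8.7%, 7.41%, 4.81% and 23.3%.

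**Figure D3:**
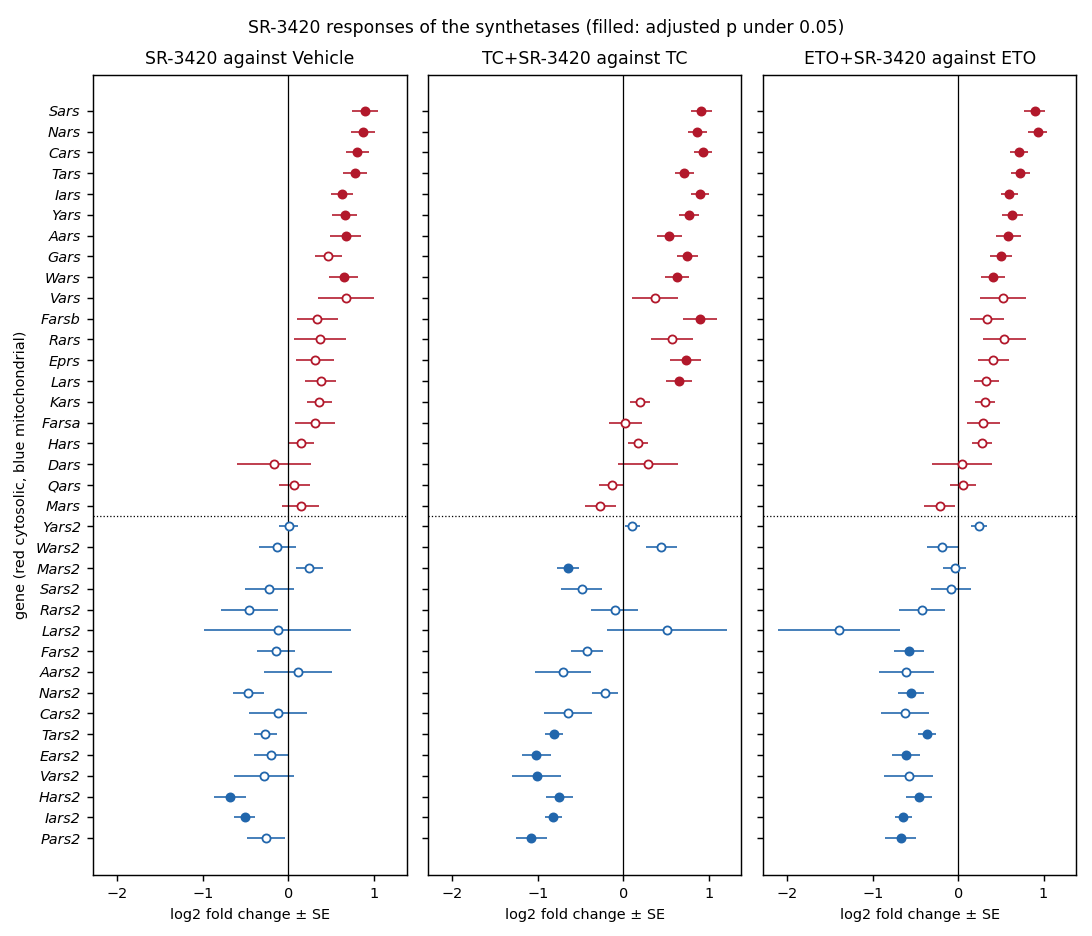
Log2 fold change (± SE) of each synthetase gene in the 3 SR-3420 responses, cytosolic in red and mitochondrial in blue; filled points passed the test. Filled points are red on the right of 0 and blue on its left in each panel, 8, 12 and 9 red and 2, 7 and 7 blue.

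In 13 pairs the members of both compartments share a symbol apart from the final 2. Eprs, Farsa and Farsb, whose symbols have no such partner, were not paired with Ears2, Pars2 and Fars2. The log2 fold change of the cytosolic gene was above that of its partner in 12 of 13 pairs for SR-3420 alone, 13 within TC and 12 within ETO, with median differences of 0.83, 1.08 and 1.09. The exception for SR-3420 alone and within ETO was methionine. Partners that passed in opposite directions were those of isoleucine for SR-3420 alone, of isoleucine and threonine within TC and of isoleucine, asparagine and threonine within ETO. The isoleucine pair, apart in all 3, gave 0.63 for Iars and -0.51 for Iars2 for SR-3420 alone, 0.90 and -0.82 within TC, and 0.60 and -0.64 within ETO. The pairs for leucine and tryptophan were closest together within TC. No test was run on a pair's difference.

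**Figure D4:**
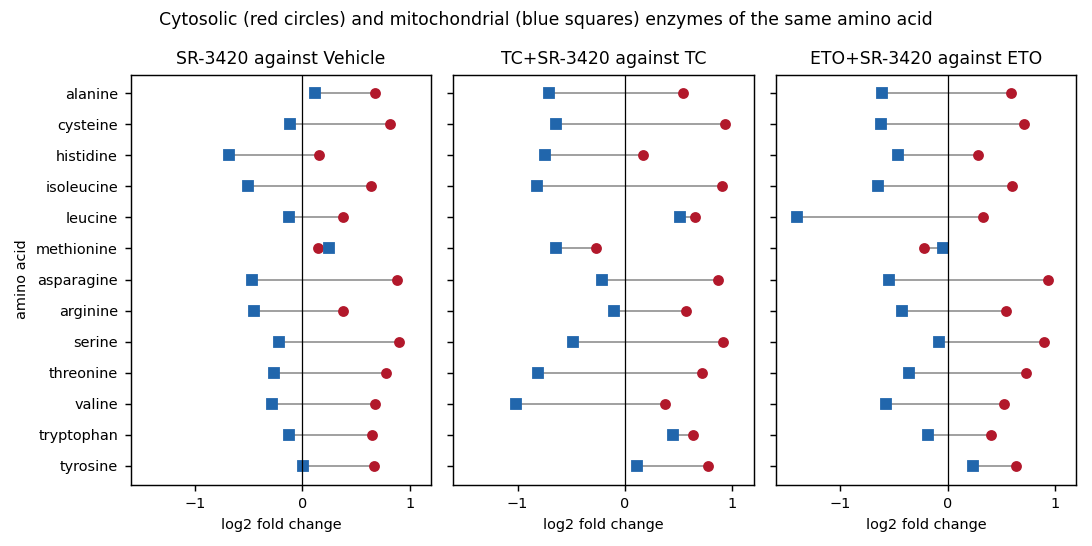
Log2 fold changes of the cytosolic (red circles) and mitochondrial (blue squares) enzyme of the same amino acid in the 3 SR-3420 responses. Each line joins a pair; the red circle lies to the right in 12, 13 and 12 of the 13 pairs.

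The inhibitors were also compared without SR-3420. In TC against Vehicle, 2 cytosolic genes rose, Nars by log2 0.68 ± 0.13 and Tars by 0.63 ± 0.13 (edgeR adjusted p = 0.00339 and 0.00533), where 4.77% of all genes rose and 6.94% fell, and 0 fell by edgeR (0 at an unadjusted p under 0.05 and 0 by DESeq2). The cytosolic median was 0.28 and that of all genes 0.07. Of the mitochondrial genes, Mars2 rose by 0.71 ± 0.15 and Nars2, the asparaginyl enzyme, changed by -0.58 ± 0.17 (edgeR adjusted p = 0.00618 and 0.0381), with a median of -0.0044. Without Vehicle replicate 2 or Vehicle replicate 3 the cytosolic count was 1, and the mitochondrial count was 0 without Vehicle replicate 3 and 1 without Vehicle replicate 2, TC replicate 1 or TC replicate 2. In a model of only these groups the mitochondrial count was 0, with no filter 1, and with the trends removed 7 (1 higher and 6 lower, when 24% of all genes passed), while DESeq2 called 4 cytosolic genes higher and 6.82% of all genes. In ETO against Vehicle, 0 cytosolic and 0 mitochondrial genes rose and 0 of either fell by edgeR, where 0.0156% of all genes rose and 0.00782% fell. Their medians were 0.13 and -0.024, 1 cytosolic gene was higher and 0 mitochondrial genes lower at an unadjusted p under 0.05, and DESeq2 called 0. Of the markers, 1 of 2 for macrophages was higher and 3 of 11 for brown adipocytes were lower in TC than in Vehicle, and their part in the result was not tested. The comparisons with TC and ETO share the Vehicle samples.

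With SR-3420 present in both groups, adding TC raised 2 cytosolic genes, again Nars (0.67 ± 0.13, edgeR adjusted p = 0.0114) and Tars (0.57 ± 0.13, edgeR adjusted p = 0.0239), where 1.02% of all genes rose. The mitochondrial genes Iars2 (-0.46 ± 0.11, edgeR adjusted p = 0.0305) and Fars2, the phenylalanyl enzyme (-0.86 ± 0.20, edgeR adjusted p = 0.0264), fell, where 3.55% of all genes fell. No cytosolic gene fell by edgeR (0 at an unadjusted p under 0.05 and 0 by DESeq2) and no mitochondrial gene rose (1 at an unadjusted p under 0.05 and 1 by DESeq2). Median log2 differences were 0.38 over the cytosolic and -0.31 over the mitochondrial genes, against 0.017 over all genes. Of the brown adipocyte markers 4 of 11 were lower in this comparison, and their part in the result was not tested. The mitochondrial count became 0 without any 1 of the 5 samples (SR-3420 replicates 1 and 3, TC+SR-3420 replicates 1, 2 and 3) or in a model of only these, 1 with no filter or without Iars2, 4 by DESeq2 (9.62% of all genes passed) and 7 with the trends removed (19%). The cytosolic count became 0 without SR-3420 replicate 1 or in that model, 1 with no filter or without SR-3420 replicate 3, TC+SR-3420 replicate 2 or TC+SR-3420 replicate 3, 7 by DESeq2 (3.73% of all genes rose) and 11 with the trends removed (8.15%). Adding ETO called 0 members of either set in either direction in the main edgeR fit, where 0% of all genes rose and 0.00782% fell. The medians were 0.13 and -0.15, 3 mitochondrial and 0 cytosolic genes were lower at an unadjusted p under 0.05, and DESeq2 called 0. With samples blocked by replicate number, edgeR called 1 cytosolic and 2 mitochondrial genes lower, when 8.42% of all genes fell and 5.95% rose. These comparisons share the SR-3420 samples.

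Whether an inhibitor altered the SR-3420 response itself was tested as the difference of responses. Mars2, the mitochondrial methionyl enzyme, was the only member that passed in any of the 3 differences. Its level was 45.1 and 31.6 CPM in Vehicle, 45.4 and 45.6 in SR-3420, 69.6, 59.7 and 59.9 in TC, 40.2, 43.3 and 37.5 in TC+SR-3420, 39.8, 42.2 and 38.7 in ETO, and 39.6, 38.9 and 38.7 in ETO+SR-3420. The TC samples were the highest, and TC+SR-3420 returned to the range of the other groups. Log2 fold changes were 0.25 ± 0.16 for SR-3420 alone, -0.64 ± 0.13 with TC and -0.042 ± 0.13 with ETO (edgeR adjusted p = 0.413, 0.00189 and 0.856). The response within TC was below that without inhibitor by a log2 difference of -0.89 ± 0.21 (edgeR adjusted p = 0.0409), where 1.27% of all genes had a lower and 1.24% a higher response. The call was lost without any 1 of 9 of the 10 samples (Vehicle replicate 3, SR-3420 replicates 1 and 3, TC replicates 1, 2 and 3, TC+SR-3420 replicates 1, 2 and 3), with edgeR adjusted p of 0.0683 to 0.214, as well as with no filter on low counts and in a model of only these groups, while DESeq2 and the fit with trends removed called 2 mitochondrial genes, with 3.03% and 4.47% of all genes lower. No cytosolic gene passed in this difference by edgeR (0 higher and 0 lower at an unadjusted p under 0.05, 0 by DESeq2).

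In the difference of responses within ETO and without inhibitor, 0 members passed by edgeR, where 0% of all genes were higher and 0% lower. At an unadjusted p under 0.05 the counts were 0 cytosolic and 0 mitochondrial, and DESeq2 called 0. Between TC and ETO 0 members passed by edgeR, where 1.52% of all genes had a higher and 0.774% a lower response within TC. Here 1 mitochondrial gene was higher and 2 lower at an unadjusted p under 0.05, 0 cytosolic genes were, and DESeq2 called 1 mitochondrial gene. With trends over GC content and length removed, an alternative chosen after seeing the data, 2 cytosolic genes passed, as did 7.51% of all genes. In the main edgeR fit, Mars2 apart, the larger counts within TC than without inhibitor are not matched by a difference that passed. With the replicate number as a block, 2 mitochondrial genes had a lower response within TC than without inhibitor, as did 7.29% of all genes. Between TC and ETO that fit called 1 mitochondrial gene higher and 1 lower, beside 4.96% and 3.29% of all genes. A difference of responses has a larger SE than either response, so smaller differences can be missed.

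**Figure D5:**
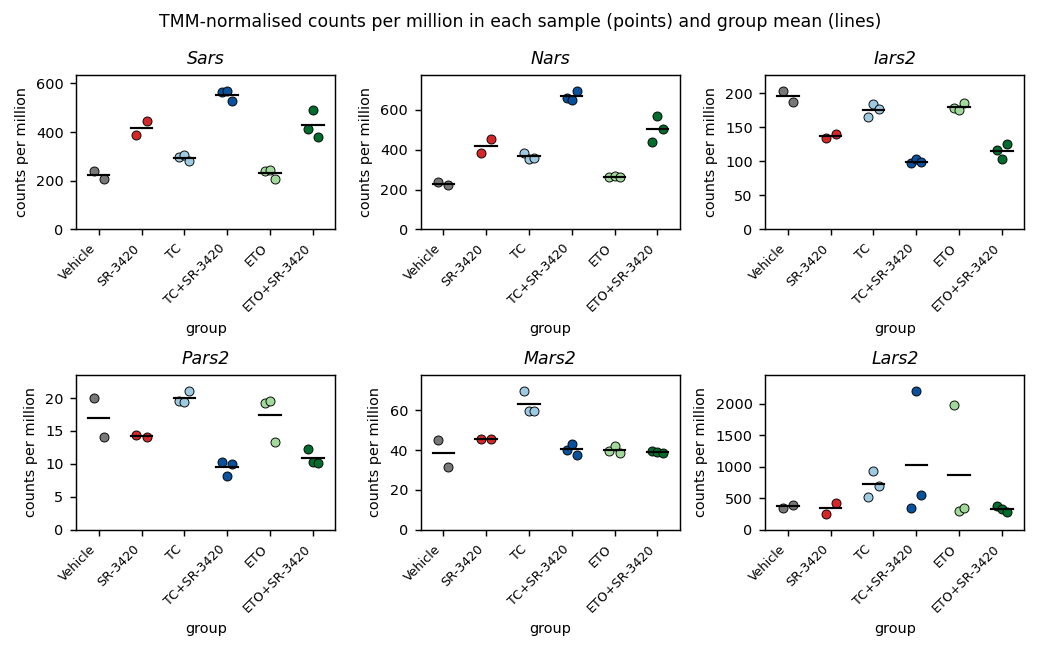
CPM of 6 members in each sample (points) with group means (lines). Sars and Nars are higher, and Iars2 and Pars2 lower, in the TC+SR-3420 and ETO+SR-3420 samples than in their controls; Mars2 is highest in TC, and Lars2 has 2 samples far above the rest.

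Reference genes of the integrated stress response were read beside the synthetases. Atf4, its transcription factor, measured 457 and 459 CPM in Vehicle, 625 and 811 in SR-3420, 747, 681 and 752 in TC, 1203, 1209.6 and 1254 in TC+SR-3420, 596, 567 and 601 in ETO, and 819, 956 and 881 in ETO+SR-3420. Its SR-3420 samples lay above their controls in each pretreatment, and TC alone above Vehicle. The log2 fold changes were 0.65 ± 0.14 for SR-3420 alone, 0.75 ± 0.12 with TC and 0.59 ± 0.12 with ETO (edgeR adjusted p = 0.0143, 2.59e-04 and 0.00243), and the first call was lost without Vehicle replicate 2, Vehicle replicate 3 or SR-3420 replicate 3, at 0.0920 to 0.113 by edgeR. In a model of only the groups compared, neither that call nor the one within ETO passed. Ddit3, which encodes CHOP, rose most of the 4, with 126 and 86.7 CPM in Vehicle, 522 and 451 in SR-3420, 161, 219 and 171 in TC, 746, 799 and 634 in TC+SR-3420, 192, 139 and 102 in ETO, and 614, 576 and 408 in ETO+SR-3420. Log2 fold changes were 2.19 ± 0.30 for SR-3420 alone, 1.98 ± 0.24 with TC and 1.88 ± 0.24 with ETO (edgeR adjusted p = 7.91e-04, 4.74e-05 and 1.39e-04), and no SR-3420 group overlapped its control. Asns stood at 179.9 and 187 CPM in Vehicle, 208 and 231 in SR-3420, 232, 218 and 220.5 in TC, 246, 249.8 and 296 in TC+SR-3420, 205, 203 and 223 in ETO, and 192, 229 and 244 in ETO+SR-3420. Its SR-3420 samples lay just above their controls without inhibitor and within TC and overlapped them within ETO, and the log2 fold changes of 0.26 ± 0.14 for SR-3420 alone, 0.24 ± 0.12 with TC and 0.08 ± 0.12 with ETO did not pass (edgeR adjusted p = 0.320, 0.123 and 0.681). Trib3, which feeds back on ATF4, gave 132 and 92.0 CPM in Vehicle, 218 and 207 in SR-3420, 132, 165 and 141 in TC, 282, 281 and 230.1 in TC+SR-3420, 230.3, 203 and 158 in ETO, and 213, 201 and 169.5 in ETO+SR-3420. It was higher with SR-3420 alone and within TC, but its ETO samples were already high. Log2 fold changes were 0.92 ± 0.21 for SR-3420 alone, 0.86 ± 0.17 with TC and -0.019 ± 0.17 with ETO (edgeR adjusted p = 0.0185, 0.00176 and 0.955), and the first call was lost without Vehicle replicate 3, SR-3420 replicate 1 or SR-3420 replicate 3, at 0.0585 to 0.175 by edgeR, and in a model of only those groups.

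The wider lists moved as follows for SR-3420 alone, within TC and within ETO, where 4.75%, 17.3% and 12.5% of all genes rose and 2.79%, 19.7% and 12.8% fell. Of 12 integrated stress response factors 7, 8 and 7 rose and 0, 0 and 0 fell, with medians of 0.91, 0.77 and 0.79. Of 12 genes of amino acid and one-carbon synthesis 5, 7 and 7 rose and 1, 0 and 1 fell (medians 0.78, 0.72 and 0.68), and of 9 amino acid transporters 5, 7 and 7 rose and 0, 1 and 0 fell (medians 0.73, 1.099 and 1.01). The transporter Slc7a1, for cationic amino acids, rose by 1.77 ± 0.14, 1.93 ± 0.12 and 1.52 ± 0.11 (edgeR adjusted p = 1.28e-05, 4.77e-07 and 2.28e-06). Of 4 eIF2 kinase genes 0, 1 and 0 rose and 0, 0 and 1 fell, with medians of -0.23, -0.06 and -0.24. None of the 12 factors fell at an unadjusted p under 0.05 or by DESeq2.

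Partners of the synthetases were read in the same way, beside 4.75%, 17.3% and 12.5% of all genes that rose. Among 3 scaffold proteins of the multi-tRNA synthetase complex 0, 1 and 0 rose and 0, 0 and 0 fell by edgeR (at an unadjusted p under 0.05 1, 1 and 1 higher, by DESeq2 0, 1 and 1), the one within TC being Eef1e1 at 0.71 ± 0.20 (edgeR adjusted p = 0.0141). Of 5 cytosolic elongation factors 0, 0 and 1 rose and 0, 0 and 0 fell by edgeR (at an unadjusted p under 0.05 1, 0 and 1 higher, by DESeq2 1, 1 and 1). On the mitochondrial side, 0, 5 and 4 of 8 initiation, elongation and release factors fell, where 2.79%, 19.7% and 12.8% of all genes fell (at an unadjusted p under 0.05 2, 6 and 5, by DESeq2 1, 5 and 4), with medians of -0.28, -0.54 and -0.38, and 0, 0 and 0 rose. Mitochondria make glutaminyl-tRNA by amidation and formylate the initiator methionyl-tRNA. Of the 4 genes of these enzymes 1, 3 and 3 fell, against the same shares of all genes, with medians of -0.47, -0.61 and -0.52. Gfm2, a mitochondrial ribosome recycling factor, changed by -0.45 ± 0.15, -0.96 ± 0.13 and -0.64 ± 0.13 (edgeR adjusted p = 0.0996, 8.53e-05 and 0.00246).

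On build mm9 of the count table, the members given sample by sample lie at chr3:108227782-108248177 (Sars), chr18:64659301-64676211 (Nars), chr7:150743135-150785995 (Cars), chr15:11313418-11329413 (Tars), chr13:49777499-49829636 (Iars), chr9:108410336-108418272 (Qars) and chr1:130260284-130313993 (Dars) for the cytosolic set and at chr1:187110541-187153280 (Iars2), chr18:36942934-36952214 (Hars2), chr4:106323674-106327887 (Pars2), chr9:123276058-123371782 (Lars2), chr16:16303058-16309733 (Yars2), chr3:98945013-99024126 (Wars2), chr7:29526987-29538898 (Sars2) and chr1:55294021-55296902 (Mars2) for the mitochondrial set. Hars and Hars2 are neighbours on opposite strands of chromosome 18. Genes that overlap another gene of the table on the opposite strand are Farsb (2329 bases, with Sgpp2), Mars, Yars (30 bases, with C77080) and Iars2 (85 bases, with Rab3gap2). Whether the counting used strand is not stated, so reads in these overlaps cannot be assigned to either gene.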

How the data were processed

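The authors aligned the reads to mm9 with STAR 2.4.2a, kept 1 read per position and length with HOMER, and deposited whole-number counts per gene, without normalization, which are the values used here. A column of the table named as a transcript length equals the gene's span. The members and lists were chosen with earlier results of these data known. Counts were tested with edgeR 4.0.16 in R 4.3.3 by its quasi-likelihood test after TMM scaling and filterByExpr. A single fit held the 6 group means and nothing else, and the false discovery rate of Benjamini and Hochberg was taken over all genes tested. The members given sample by sample are the 5 cytosolic and 4 mitochondrial genes with the largest, and the 2 of each with the smallest, mean size of the 3 SR-3420 responses, members that passed in a difference of responses, Sars with Sars2, and 4 reference genes. Class levels use a prior count of 2. Alternatives were DESeq2 1.42.0 size factors and Wald test, other filters, a model of only the groups compared, a block of samples with the same replicate number, fits without each sample in turn, leaving out overlapping genes, gene span as length and a prior count of 0.5, and, chosen after seeing the data, removal of trends over GC content and length (splines with 5 degrees of freedom) and leaving out Lars2. The fit was tested on simulated data, where fewer of the changed genes passed in a difference of responses than in a direct comparison. Exonic runs of 31 bases were compared with the genome. Figures were drawn with matplotlib 3.10.9. The replicate numbers are 2 and 3 in Vehicle and 1 and 3 in SR-3420.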

Additional observations from a re-analysis of the deposited data

Results flagged for a closer look

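The response of Mars2 to SR-3420 differed between pretreatments by the test of the difference itself: within TC it was lower than without inhibitor by a log2 difference of -0.89 (edgeR adjusted p = 0.0409). The log2 fold change was 0.25 ± 0.16 without inhibitor and -0.64 ± 0.13 within TC. The call held without Vehicle replicate 2 and was lost without any other of the 10 samples (Vehicle replicate 3, SR-3420 replicates 1 and 3, TC replicates 1, 2 and 3, and TC+SR-3420 replicates 1, 2 and 3), with edgeR adjusted p of 0.0683 to 0.214.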

How the results depend on the processing

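Counts of members that passed moved by over 1.5 times under 40 and not under 130 combinations of comparison and alternative, fits without 1 sample aside, and under DESeq2's size factors in edgeR, the filter of 10 counts in every sample and the removal of Lars2 (chosen after seeing the data) none moved. A count of 0 in both fits was scored as not moved. The 130 therefore include comparisons in which no member passed in either fit, such as ETO against Vehicle. The median log2 fold change of a set moved under 10 and not under 160 combinations. In fits without 1 sample it moved under 27 and not under 109. The replicate numbers did not pair the samples throughout: deviations from group means correlated over 0.1 in 27 of 35 pairs with the same number (from -0.29 to 0.83), and 10 of 16 samples correlated best with their own number. Every pair that did not reach 0.1 held TC replicate 1 or ETO+SR-3420 replicate 2. The mean correlation was 0.41 in pairs with the same number and -0.20 in the other pairs. Pairing of the remaining samples is thus possible, and the main fit does not use it. In the next sentences, shares in brackets are of all genes that passed in the same fit and comparison. With the replicate number as a block, the counts were cytosolic 17 in ETO+SR-3420 against ETO (45.2%), 8 in TC against Vehicle (24%), 11 in TC+SR-3420 against SR-3420 (23.5%) and 1 in ETO+SR-3420 against SR-3420 (14.4%) and mitochondrial 12 in TC+SR-3420 against TC (56.2%), 12 in ETO+SR-3420 against ETO (45.2%), 4 in TC against Vehicle (24%), 7 in TC+SR-3420 against SR-3420 (23.5%), 2 in ETO+SR-3420 against SR-3420 (14.4%), 2 in the difference TC minus no inhibitor (13.1%) and 2 in the difference TC minus ETO (8.25%). The cytosolic calls of this fit were higher, apart from the 1 in ETO+SR-3420 against SR-3420, which was lower, and the mitochondrial calls were lower, apart from 1 gene within TC, 1 within ETO, 1 in TC against Vehicle and 1 in the difference TC minus ETO. With trends over GC content and length removed (chosen after seeing the data), they were cytosolic 14 in SR-3420 against Vehicle (24.2%), 16 in ETO+SR-3420 against ETO (46.4%), 11 in TC+SR-3420 against SR-3420 (19%) and 2 in the difference TC minus ETO (7.51%) and mitochondrial 4 in SR-3420 against Vehicle (24.2%), 12 in ETO+SR-3420 against ETO (46.4%), 7 in TC against Vehicle (24%), 7 in TC+SR-3420 against SR-3420 (19%) and 2 in the difference TC minus no inhibitor (9.4%). In a model of only the groups compared, they were cytosolic 0 in SR-3420 against Vehicle (0.378%), 4 in ETO+SR-3420 against ETO (9.9%) and 0 in TC+SR-3420 against SR-3420 (0.634%) and mitochondrial 0 in SR-3420 against Vehicle (0.378%), 1 in ETO+SR-3420 against ETO (9.9%), 0 in TC against Vehicle (11.9%), 0 in TC+SR-3420 against SR-3420 (0.634%) and 0 in the difference TC minus no inhibitor (2.14%). By DESeq2's Wald test, they were cytosolic 4 in TC against Vehicle (15.9%) and 7 in TC+SR-3420 against SR-3420 (9.62%) and mitochondrial 4 in TC+SR-3420 against SR-3420 (9.62%), 2 in the difference TC minus no inhibitor (6.51%) and 1 in the difference TC minus ETO (5.33%). With no filter on low counts, they were cytosolic 1 in TC+SR-3420 against SR-3420 (2.5%) and mitochondrial 0 in SR-3420 against Vehicle (3.73%), 1 in TC against Vehicle (6.77%), 1 in TC+SR-3420 against SR-3420 (2.5%) and 0 in the difference TC minus no inhibitor (0.868%). Without overlapping genes, they were mitochondrial 1 in SR-3420 against Vehicle and 1 in TC+SR-3420 against SR-3420. Leaving out 1 sample gave, with a lone sample assumed to vary like the other groups, 4 to 6 cytosolic in SR-3420 against Vehicle, 1 to 2 cytosolic in TC against Vehicle, 0 to 2 cytosolic in TC+SR-3420 against SR-3420, 0 to 0 mitochondrial in SR-3420 against Vehicle, 1 to 6 mitochondrial in ETO+SR-3420 against ETO, 0 to 2 mitochondrial in TC against Vehicle, 0 to 0 mitochondrial in TC+SR-3420 against SR-3420 and 0 to 1 mitochondrial in the difference TC minus no inhibitor. Log2 fold changes that changed sign, none of them past the threshold, were Dars at 0.10 (GC and length trends removed) in SR-3420 against Vehicle, Yars2 at -0.014 (DESeq2 size factors in edgeR), -0.013 (DESeq2 Wald test), -0.0032 (no filter on low counts), -0.0012 (at least 10 counts in every sample) and -0.028 (only the groups compared) in SR-3420 against Vehicle and Trib3 at 0.025 (GC and length trends removed) in ETO+SR-3420 against ETO. Leaving out 1 sample also turned the sign of Lars2 in SR-3420 against Vehicle (-0.557 to 0.213), Pars2 in SR-3420 against Vehicle (-0.486 to 0.0101), Qars in SR-3420 against Vehicle (-0.134 to 0.318), Dars in SR-3420 against Vehicle (-0.504 to 0.129), Yars2 in SR-3420 against Vehicle (-0.0538 to 0.0629), Wars2 in SR-3420 against Vehicle (-0.451 to 0.139), Sars2 in SR-3420 against Vehicle (-0.480 to 0.108), Lars2 in TC+SR-3420 against TC (-0.640 to 0.931), Lars2 in ETO+SR-3420 against ETO (-1.81 to 0.0472), Qars in ETO+SR-3420 against ETO (-0.0608 to 0.143), Dars in ETO+SR-3420 against ETO (-0.276 to 0.464), Sars2 in ETO+SR-3420 against ETO (-0.268 to 0.0691) and Trib3 in ETO+SR-3420 against ETO (-0.156 to 0.109). The cause was not tested. No other scaling moved the median of all genes tested by over 0.1. With 2 Vehicle and 2 SR-3420 samples, and counts per sample from 9452861, small responses of low genes such as Pars2 and Sars2 can be missed.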
